A study of Mus musculus with 4 samples.

Results

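The 39 genes described here encode the glycoproteins, proteoglycans and elastic fibres of the renal interstitium, the enzymes that crosslink and degrade them, and the receptors and filament proteins of the fibroblasts and mural cells that make them. They were taken by gene name from the deposited table of 54078 features, and all 39 were found there once. Total kidney RNA was sequenced at day 3 after bilateral renal I/R, in which both kidneys were clamped for 30 min. The WT pools came from Apela flox/flox mice without Cre, and the KO pools from Apela flox/flox littermates that carry Ksp-Cre, so that both groups carry the floxed allele and Cre is active in renal tubular epithelial cells only. All mice were adult males, of the strain labelled C57BL/6 x 129S4/SvJae and described in the study's methods as C57BL/6. Each library is described as a pool of RNA from 3 mice, with 2 pools in each group, so n = 2 counts pools, and uninjured kidneys were not part of this comparison.

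After ischaemic injury, interstitial fibroblasts and pericytes can turn into contractile, matrix-producing myofibroblasts, which are marked by smooth muscle actin. PDGF ligands from endothelial, immune and tubular cells act on PDGF receptors of these stromal cells. Fibronectin, tenascin-C and periostin form an early provisional matrix, lysyl oxidases crosslink collagen and elastin, and matrix metalloproteinases and their TIMP inhibitors set how fast the matrix is turned over. Fibroblast genes are transcribed outside the cells that lost Apela, with exceptions among the listed genes such as Mmp7, which is known as a gene of injured tubular epithelium.

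The libraries held 16045724 to 16927742 reads assigned to genes. Apela, the deleted gene, measured 5.27 and 4.57 FPKM in the WT pools against 0.536 and 0.245 FPKM in the KO pools. Of 7 kidney epithelial markers all were detected in every pool, with Umod, the uromodulin of the thick ascending limb, between 788 and 1133 FPKM. The series design text names adipose tissue, where the other labels name kidney, and the defining fat markers Adipoq, Lep and Ucp1 had at most 0.268 FPKM in any pool. Of 7 fat markers 1 reached the level for testing, the lipid droplet gene Cidec, with 1.37 and 0.282 FPKM in WT and 7.92 and 2.79 FPKM in KO. In bulk RNA, fewer cells of a type and less RNA per cell cannot be told apart.

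Across the 39 genes the mean level spanned from Mgp, matrix Gla protein, at 154 and 245 FPKM in the WT pools and 151 and 78.7 FPKM in the KO pools, down to Fap, fibroblast activation protein, at 0.0659 and 0.103 FPKM in WT and 0.169 and 0.120 FPKM in KO. FPKM are fragment counts scaled to the length of the gene and to the size of the library, so levels of different genes can be compared. The most abundant genes after Mgp were Sparc, Timp3, Serpinh1, Acta2 and Bgn. Of the 39 genes, 35 had a mean of at least 0.5 FPKM and were tested, while Tagln, Vcan, Mfap5 and Fap lay under this filter.

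**Figure D1:**
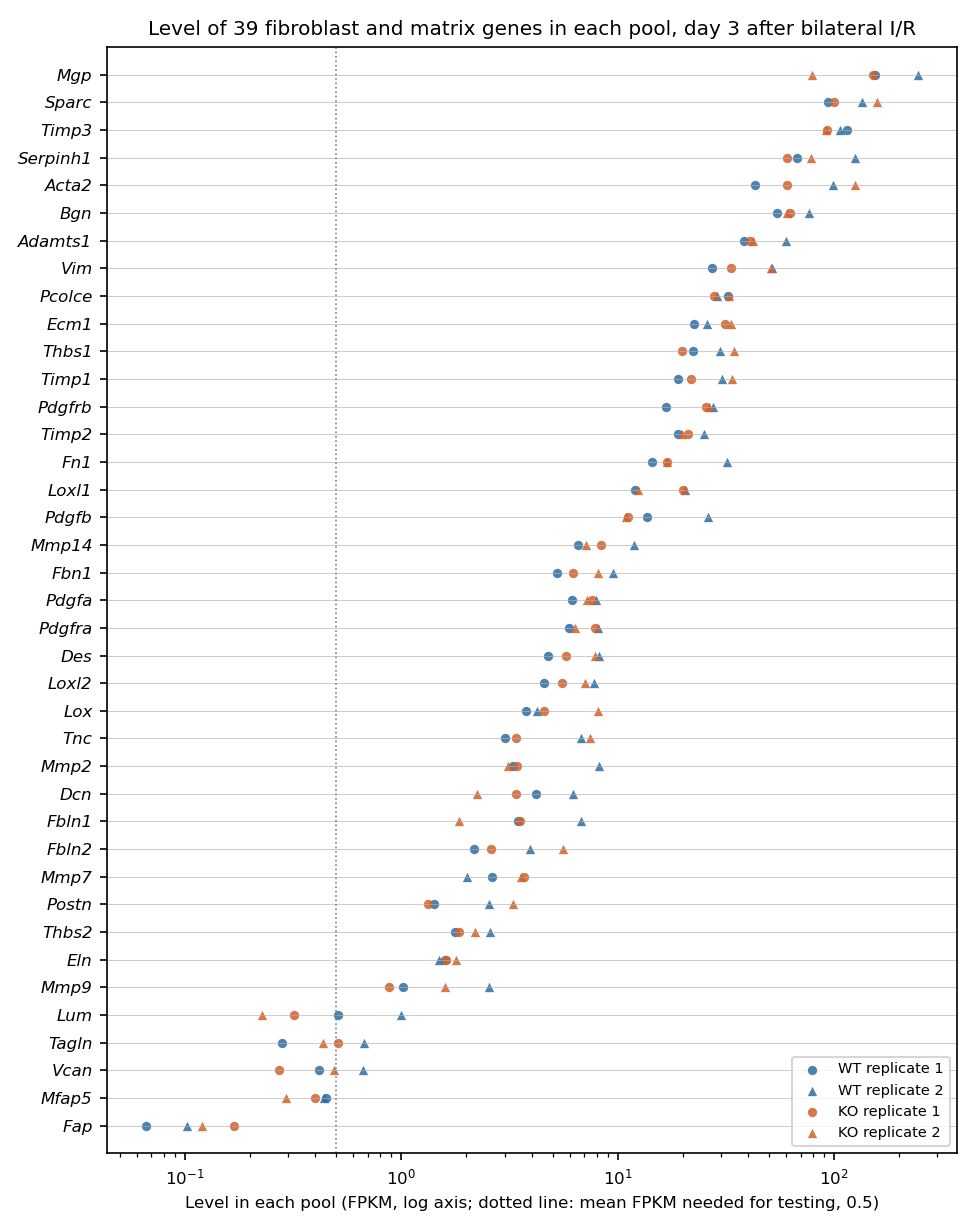
Level of each of the 39 genes in the 4 pools, in FPKM on a log axis, with circles for replicate 1 and triangles for replicate 2 of WT (blue) and KO (orange), ordered by mean level. The blue triangle, WT replicate 2, is the highest of the 4 points in 22 of the 35 tested genes, for example at 32.0 FPKM for Fn1.

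The comparison of KO with WT asks whether deletion of tubular Apela changed the stromal and matrix transcripts of the injured kidney. No gene of the set passed the threshold of an adjusted p-value under 0.05 (limma on log2(FPKM + 0.5), Benjamini-Hochberg adjustment over 15414 genes), and 0% of all tested genes did. Apela, the deleted gene, did not pass either, at a log2 fold change of -2.62 and an adjusted p of 0.466 (limma). That was the smallest adjusted p of all tested genes. A gene that did not pass is therefore not shown to be unchanged. At an unadjusted p under 0.05 there were 3 of the 35 genes, against 6.32% of all tested genes. Of these, Mmp7 and Ecm1 were higher in KO, where the share of all genes is 3.29%, and Dcn was lower, where it is 3.03%. Both KO pools lay above both WT pools for 4 genes (Ecm1, Eln, Lox and Mmp7), against 19.7% of all genes. They lay below for 5 genes (Mgp, Dcn, Lum, Timp3 and Pdgfb, with Lum past the filter only through WT), against 18.1%. These shares are near or under those of all genes. The median log2 fold change of the set was 0.0024, with 19 genes higher and 16 lower, against 51.4% and 48.6% of all tested genes, whose median was 0.0071.

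The split of directions rested on single pools. Without WT replicate 1, 5 genes were higher and 30 lower in KO with a median log2 fold change of -0.29, and without WT replicate 2, 27 were higher and 8 lower with a median of 0.23. Without KO replicate 1 the numbers were 19 and 16, and without KO replicate 2 they were 8 and 27 with a median of -0.16. Over all tested genes the share that was higher in KO was 50.8%, 51.4%, 51.6% and 51.1% in these 4 fits. The direction was not the same in all 4 for 24 of the 35 genes, against 48.9% of all tested genes. The number of genes at an unadjusted p under 0.05 was 10, 2, 3 and 0 in these 4 fits (limma), and the share of all tested genes at that threshold was 11.2%, 4.46%, 4.72% and 5.05%.

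**Figure D2:**
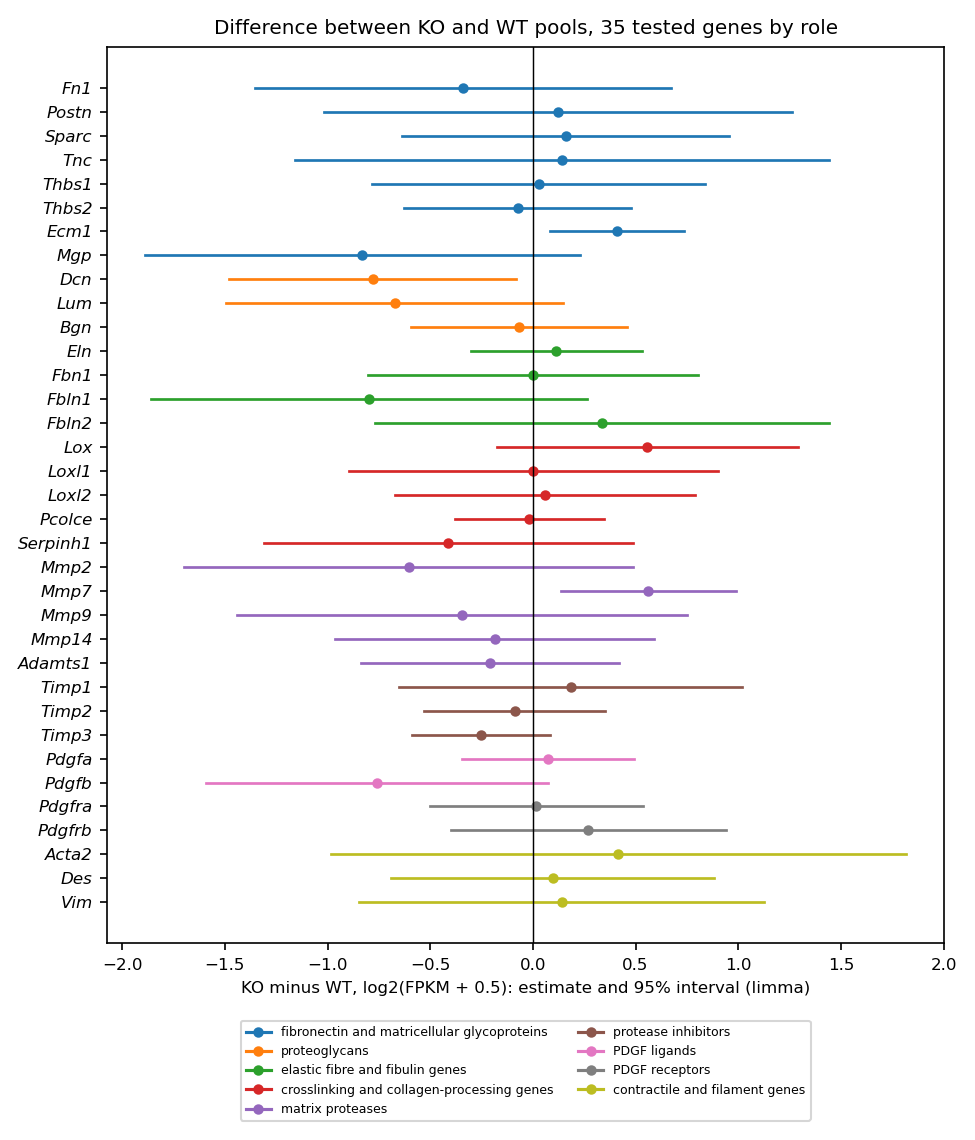
Difference between KO and WT for the 35 tested genes, as the estimate (point) and its 95% interval (line) on the log2(FPKM + 0.5) scale from limma, with n = 2 pools in each group and colours for the gene's role. Only the intervals of Ecm1, Mmp7 and Dcn leave out 0, and those of Acta2 (-0.98 to 1.82) and Tnc (-1.16 to 1.44) are the widest.

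Ecm1 encodes extracellular matrix protein 1, a secreted glycoprotein that binds perlecan and fibulin. The gene (ENSMUSG00000028108) spans chromosome 3 from 95734147 to 95739569, minus strand, in GRCm38. Its level was 22.6 and 25.7 FPKM in the WT pools and 31.3 and 33.3 FPKM in the KO pools, from 917 to 1362 reads. The KO pools lay above the WT pools, and the pools of each group were close to each other. This gives 24.2 ± 2.19 (SD, n = 2) in WT and 32.3 ± 1.43 FPKM (SD, n = 2) in KO, with a log2 fold change of 0.41 (95% interval 0.08 to 0.74; limma, adjusted p = 0.785). It stayed between 0.32 and 0.50 with any 1 pool left out, while the unadjusted p exceeded 0.05 without WT replicate 1, KO replicate 1 or KO replicate 2 (limma).

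Mmp7 encodes matrilysin, a small secreted metalloproteinase that lacks the hemopexin domain of most of its family. The gene (ENSMUSG00000018623) spans chromosome 9 from 7692090 to 7699585, plus strand, in GRCm38. It measured 2.62 and 2.01 FPKM in the WT pools and 3.69 and 3.58 FPKM in the KO pools. These values rest on 45 and 37 reads in WT and 66 and 62 reads in KO, so counting error is a large part of their spread. The groups did not overlap. The means were 2.32 ± 0.430 (SD, n = 2) and 3.63 ± 0.0843 FPKM (SD, n = 2), and the log2 fold change was 0.56 (95% interval 0.14 to 0.99; limma, adjusted p = 0.772). With voom weights, which account for the read number, the unadjusted p was 0.0711 (limma). Its log2 fold change ranged from 0.41 to 0.72 when single pools were dropped, and the unadjusted p exceeded 0.05 without WT replicate 2 or either KO pool.

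Promoters from RefSeq, from 250 bases before to 50 after a start site, were used for 23 of the 39 genes, and for 21 of the 23 the last 20 bases were found in a transcript of the gene. The start site lay 3103 bases from the gene start in the deposited table for Sparc, 2426 for Pdgfa, 2380 for Pcolce and 1555 for Fbn1. For the other windows the distance was at most 384 bases (Vim). Motif counts describe these windows and not other start sites of the genes. The other 16 genes were not analysed here. The windows were searched on both strands for the AP-1 motif TGANTCA, the TATA motif TATAAA and the CArG box. Ecm1 and Mmp7 were the 2 of the 23 with the AP-1 motif, which 7.81% of 32851 promoters of this length hold, and the matches start 64 and 63 bases before the start site. Both also hold the TATA motif, as 7 of the 23 do against 13.6% of all promoters, at 27 bases before the start site in Ecm1 and at 26 and 123 bases before it in Mmp7. Their promoters are shown because these were the 2 genes with higher values in KO at an unadjusted p under 0.05, at chr3:95739520-95739819 (minus strand) and chr9:7691840-7692139 (plus strand) of GRCm38.p6, with the AP-1 and TATA motifs in capitals. The Mmp7 window is the one of 2 whose start site equals the gene start in the deposited table.
Ecm1: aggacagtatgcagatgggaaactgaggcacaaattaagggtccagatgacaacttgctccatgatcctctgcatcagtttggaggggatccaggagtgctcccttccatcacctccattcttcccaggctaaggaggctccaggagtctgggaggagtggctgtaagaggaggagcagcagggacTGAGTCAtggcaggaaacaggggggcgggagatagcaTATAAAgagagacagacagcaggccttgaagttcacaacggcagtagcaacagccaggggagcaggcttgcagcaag
Mmp7: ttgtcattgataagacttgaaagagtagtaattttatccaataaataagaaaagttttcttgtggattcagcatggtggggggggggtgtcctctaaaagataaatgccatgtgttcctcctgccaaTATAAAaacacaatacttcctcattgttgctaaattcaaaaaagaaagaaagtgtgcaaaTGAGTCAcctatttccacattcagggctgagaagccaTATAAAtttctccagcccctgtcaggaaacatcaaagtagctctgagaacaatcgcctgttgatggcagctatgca
A match is a description of the sequence, and binding was not measured. None of the 23 promoters, those of the contractile genes Acta2 and Des included, held the CArG box in its strict form, which 1.63% of all promoters do. The strict form is CCWWWWWWGG, with W for A or T. Forms with a mismatch were not counted, such as ccctatatgg and ccttgtttgg in the Acta2 window.

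Tubular injury markers were higher in KO for 8 of 12 genes, against 51.4% of all tested genes, and for 7 of them both KO pools lay above, against 19.7%. Their summed level was 8359 and 9431 FPKM in WT and 10609 and 8195 FPKM in KO, of which Spp1, osteopontin, made up 82.6% to 84.5%. Without Spp1 it was 1333 and 1642 FPKM in WT and 1648 and 1324 FPKM in KO, with no separation of the groups. Lcn2 and Krt20 were among the higher ones, with Lcn2, lipocalin-2, at 133 and 95.2 FPKM in WT and 249 and 273 FPKM in KO. The 4 markers with lower means in KO were Havcr1, Vcam1, Sox9 and Clu. Havcr1, which encodes the injury marker KIM-1, had 210 and 393 FPKM in WT and 249 and 105 FPKM in KO, a log2 fold change of -0.83, with overlap. Vcam1 had 14.6 and 31.0 FPKM in WT and 10.5 and 2.59 FPKM in KO. Their part in the values of Mmp7 and Ecm1 was not tested.

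The small leucine-rich proteoglycans bind collagen fibrils and set their spacing. Dcn, decorin, measured 4.18 and 6.24 FPKM in the WT pools and 3.39 and 2.25 FPKM in the KO pools, so that both KO pools lay below. The means were 5.21 ± 1.46 (SD, n = 2) and 2.82 ± 0.808 FPKM (SD, n = 2), and the log2 fold change was -0.78 (95% interval -1.48 to -0.08; limma, adjusted p = 0.785). It was between -1.04 and -0.52 with any 1 pool left out, and the unadjusted p exceeded 0.05 without WT replicate 2 or KO replicate 2 (limma). Dcn lies on chromosome 10 from 97479609 to 97518143, and Lum, lumican, its relative, lies in the same direction from 97565128 to 97572703. Lum had 0.508 and 0.997 FPKM in WT and 0.317 and 0.226 FPKM in KO, from 20, 42, 13 and 9 reads. Its mean was 0.753 ± 0.346 (SD, n = 2) against 0.272 ± 0.0644 FPKM (SD, n = 2), with a log2 fold change of -0.67 (95% interval -1.50 to 0.15; limma, adjusted p = 0.797). At this low level the value moved with the processing, to -1.15 with a pseudocount of 0.1, -0.45 with a pseudocount of 1, -0.39 without WT replicate 2 and -1.38 with voom weights. The unadjusted p was 0.0448 with voom weights and 0.0434 without the trend (limma). Lum passed the filter of a mean of 0.5 FPKM only through its WT pools, the group where it is high. Its test and its lack of overlap therefore support no conclusion.
Bgn, biglycan, was more abundant, with 54.4 and 76.7 FPKM in WT and 62.8 and 60.4 FPKM in KO, a log2 fold change of -0.07 (95% interval -0.59 to 0.46). Vcan, the large proteoglycan versican, had 0.417 and 0.667 FPKM in WT and 0.273 and 0.490 FPKM in KO and was not tested.

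Of the fibronectin and matricellular glycoproteins, Mgp, an inhibitor of calcification in vessel walls and cartilage, had the lowest log2 fold change of the set with the pseudocount of 0.5, while Lum, Fbln1 and Dcn lay below it with a pseudocount of 0.1 or voom weights. Its WT pools, at 154 and 245 FPKM, lay above its KO pools at 151 and 78.7 FPKM, although WT replicate 1 and KO replicate 1 nearly met. The means of 200 ± 64.3 (SD, n = 2) and 115 ± 51.4 FPKM (SD, n = 2) gave -0.83 (95% interval -1.89 to 0.23; limma, adjusted p = 0.797), which moved to -0.36 when KO replicate 2 was left out and to -1.30 when KO replicate 1 was, with an unadjusted p of 0.0298 in the latter fit (limma).
Fn1, fibronectin, had 14.4 and 32.0 FPKM in WT and 16.9 and 16.8 FPKM in KO, so that 1 WT pool stood apart from the other 3. Tnc, tenascin-C, had 3.00 and 6.73 FPKM in WT and 3.40 and 7.41 FPKM in KO. Postn, periostin, had 1.42 and 2.54 FPKM in WT and 1.33 and 3.28 FPKM in KO. Replicate 2 was the higher pool of both groups for both genes, by 2.24 times in WT and 2.18 times in KO for Tnc and by 1.79 and 2.48 times for Postn, and the ranges of the groups overlapped.
Sparc, the collagen-binding osteonectin, had 93.7 and 134 FPKM in WT and 100 and 157 FPKM in KO. The thrombospondins overlapped as well. Thbs1, whose protein can activate latent TGF-beta, had 22.2 and 29.7 FPKM in WT and 19.9 and 34.5 FPKM in KO. Thbs2 had 1.78 and 2.58 FPKM in WT and 1.85 and 2.19 FPKM in KO. The log2 fold changes of these 5 genes with overlapping pools, Tnc, Postn, Sparc, Thbs1 and Thbs2, lay from -0.07 to 0.16, with intervals as wide as -1.16 to 1.44 for Tnc.

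Elastic fibres consist of elastin on a scaffold of fibrillin microfibrils, with fibulins as linkers. Eln, elastin, was even, at 1.58 and 1.49 FPKM in WT and 1.62 and 1.79 FPKM in KO. Fbn1, fibrillin-1, had 5.25 and 9.46 FPKM in WT and 6.18 and 8.08 FPKM in KO, a log2 fold change of 0.00 (95% interval -0.80 to 0.81). The fibulins Fbln1 and Fbln2 had opposite signs. Fbln1 had 3.46 and 6.75 FPKM in WT and 3.54 and 1.85 FPKM in KO, with means of 5.10 ± 2.32 (SD, n = 2) and 2.70 ± 1.20 FPKM (SD, n = 2) and a log2 fold change of -0.80 (95% interval -1.86 to 0.26; limma, adjusted p = 0.797). Fbln2 had 2.17 and 3.92 FPKM in WT and 2.59 and 5.60 FPKM in KO, a log2 fold change of 0.34 (95% interval -0.77 to 1.44). KO replicate 2 was the lowest pool for Fbln1 and the highest for Fbln2, and without it both were lower in KO, at -0.41 and -0.15. Without WT replicate 1, Fbln1 was at -1.23 with an unadjusted p of 0.0406, and without WT replicate 2 it was at -0.36 (limma). Mfap5, a microfibril glycoprotein, had 0.451 and 0.437 FPKM in WT and 0.400 and 0.292 FPKM in KO, from 17 to 27 reads.

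Among the crosslinking and collagen-processing genes, Lox, lysyl oxidase, had the highest log2 fold change. It measured 3.75 and 4.25 FPKM in WT and 4.59 and 8.10 FPKM in KO, without overlap but with KO replicate 1 close to WT. The means were 4.0 ± 0.355 (SD, n = 2) and 6.35 ± 2.49 FPKM (SD, n = 2), and the log2 fold change of 0.56 (95% interval -0.17 to 1.29; limma, adjusted p = 0.797) dropped to 0.18 when KO replicate 2 was left out and reached 0.94 when KO replicate 1 was, with an unadjusted p of 0.00871 in the latter fit (limma). Of its paralogs, Loxl1, which acts on elastin, had 12.1 and 20.4 FPKM in WT and 19.9 and 12.4 FPKM in KO, the same range in both groups. Loxl2 had 4.58 and 7.76 FPKM in WT and 5.51 and 7.08 FPKM in KO. Serpinh1, the collagen chaperone HSP47 of the endoplasmic reticulum, had 67.1 and 125 FPKM in WT and 60.6 and 78.2 FPKM in KO. Pcolce, an enhancer of procollagen C-proteinase, was even at 32.2 and 28.8 FPKM in WT and 27.8 and 32.5 FPKM in KO, with a log2 fold change of -0.018 (95% interval -0.38 to 0.34).

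Among the proteases, Mmp2, the gelatinase A of fibroblasts, had 3.27 and 8.19 FPKM in the WT pools and 3.42 and 3.11 FPKM in the KO pools. WT replicate 1 was within the range of the KO pools, and WT replicate 2 was 2.51 times WT replicate 1, the largest such ratio among the tested genes of the set. The log2 fold change of -0.61 (95% interval -1.70 to 0.49; limma, adjusted p = 0.824), from means of 5.73 ± 3.48 (SD, n = 2) and 3.26 ± 0.224 FPKM (SD, n = 2), became -0.0024 without WT replicate 2 and -1.21 without WT replicate 1, with an unadjusted p of 0.00249 in the latter fit (limma). Mmp14, a membrane-bound activator of Mmp2, had 6.55 and 11.9 FPKM in WT and 8.33 and 7.13 FPKM in KO. Mmp9, the gelatinase B of neutrophils and macrophages, had 1.02 and 2.55 FPKM in WT and 0.878 and 1.58 FPKM in KO. Adamts1, a secreted protease that cleaves versican and other proteoglycans, had 38.3 and 60.1 FPKM in WT and 40.8 and 42.2 FPKM in KO. WT replicate 2 was the highest pool for all 4 of these proteases, while Fap had only 6 to 16 reads in a pool.
Of the TIMP inhibitors, Timp1, which is induced in injury and fibrosis, had 18.9 and 30.2 FPKM in WT and 21.9 and 33.9 FPKM in KO. Timp2 had 18.9 and 24.9 FPKM in WT and 21.1 and 19.7 FPKM in KO. Timp3, which is bound to the matrix, was the steadiest within a group of the 6 most abundant genes, at 114 and 106 FPKM in WT and 93.0 and 91.9 FPKM in KO, a log2 fold change of -0.25 (95% interval -0.59 to 0.08; limma, adjusted p = 0.797). It was -0.37 with quantile normalization, with an unadjusted p of 0.0350 (limma). Of the Timp3 exon bases, 21.3% also lie under exons of Syn3 on the opposite strand, which had 45 to 66 reads in a pool against 12154 to 14963 for Timp3.

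PDGF-B, which recruits pericytes to endothelium, and PDGF-A are ligands of the PDGF receptors. Pdgfb had 13.7 and 26.1 FPKM in the WT pools and 11.1 and 10.9 FPKM in the KO pools. Both KO pools lay below both WT pools, and WT replicate 2 lay far above the other 3. The means of 19.9 ± 8.78 (SD, n = 2) and 11.0 ± 0.181 FPKM (SD, n = 2) gave a log2 fold change of -0.76 (95% interval -1.59 to 0.07; limma, adjusted p = 0.786), which was -0.31 when WT replicate 2 was left out and -1.21 when WT replicate 1 was. The unadjusted p was 0.0407 with voom weights and 0.00138 without WT replicate 1 (limma). Pdgfa was flat, with 6.12 and 7.96 FPKM in WT and 7.57 and 7.19 FPKM in KO, and 26.1% of its exon bases lie under exons of 6330403L08Rik on the opposite strand. That gene had 94 and 107 reads in WT and 112 and 201 reads in KO, against 307 to 427 for Pdgfa. How reads in the overlap were assigned is not known. The receptor Pdgfra of interstitial fibroblasts had 5.97 and 8.14 FPKM in WT and 7.85 and 6.35 FPKM in KO. The receptor Pdgfrb of pericytes and mesangial cells had 16.7 and 27.6 FPKM in WT and 25.6 and 26.5 FPKM in KO, where WT replicate 1 was the pool that stood apart. Its log2 fold change of 0.27 (95% interval -0.40 to 0.94) was 0.62 without WT replicate 2 and turned to -0.083 without WT replicate 1.
Endothelial cells are known to make PDGF-B. Their markers were higher in KO for 10 of 10 genes, against 51.4% of all tested genes, and for 6 of them both KO pools lay above, against 19.7%. Their summed level was 211 and 243 FPKM in WT and 287 and 307 FPKM in KO, of which Plvap made up 45.4% to 56.1%. Without Plvap it was 108.0 and 132.6 FPKM in WT and 125.9 and 155.3 FPKM in KO, and the groups overlapped. Their part in the values was not tested.

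Of the contractile and filament genes, Acta2, smooth muscle actin, had 43.0 and 98.4 FPKM in the WT pools and 60.6 and 125 FPKM in the KO pools. The groups overlapped, and the pools of a group differed by 2.29 times in WT and by 2.06 times in KO. Its log2 fold change of 0.42 had the widest interval of the set, -0.98 to 1.82. Vim, vimentin, the intermediate filament of mesenchymal and dedifferentiated tubular cells, had 27.3 and 51.6 FPKM in WT and 33.5 and 51.3 FPKM in KO. Des, desmin, had 4.74 and 8.22 FPKM in WT and 5.75 and 7.87 FPKM in KO. Tagln, the smooth muscle gene transgelin, had 0.282 and 0.672 FPKM in WT and 0.511 and 0.434 FPKM in KO, from 9 to 23 reads. The smooth muscle light chain Myl9 had 38.98 and 54.6 FPKM in WT and 42.6 and 75.5 FPKM in KO. Of the Tagln exon bases, 62.4% lie under exons of Gm48529 on the opposite strand, which had 14 to 28 reads. The counting tool is not given in the sources used here, so how such reads were assigned, and what the low Tagln values measure, is not known.

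In 29 of the 35 genes the larger of both differences within a group exceeded the difference between the group means on the log2 scale, near the 75.6% of all tested genes, and with 2 pools a group this measure favours that order for any gene. The median absolute difference between the WT pools was 0.67 for the set and 0.20 for all tested genes, and between the KO pools it was 0.33 and 0.17. The median absolute log2 fold change between KO and WT was 0.19 for the set and 0.15 for all tested genes.

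WT replicate 2 was at least 1.5 times WT replicate 1 for 21 of the 35 genes, against 8.97% of all tested genes. The reverse held for 0 genes, against 9.8%. WT replicate 2 was the highest of the 4 pools for 22 genes, against 29.1%, and WT replicate 1 the lowest for 21, against 22.2%. Summed over the 39 genes the level was 827 FPKM in WT replicate 1, 1247 FPKM in WT replicate 2, 871 FPKM in KO replicate 1 and 991 FPKM in KO replicate 2. In KO, replicate 2 was at least 1.5 times replicate 1 for 10 genes, against 7.31% of all genes, and replicate 1 at least 1.5 times replicate 2 for 4, against 8.37%. With 1 pool on each side these are differences between libraries, with no replicate check. Whether a replicate number links a WT pool with a KO pool is not known.

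**Figure D3:**
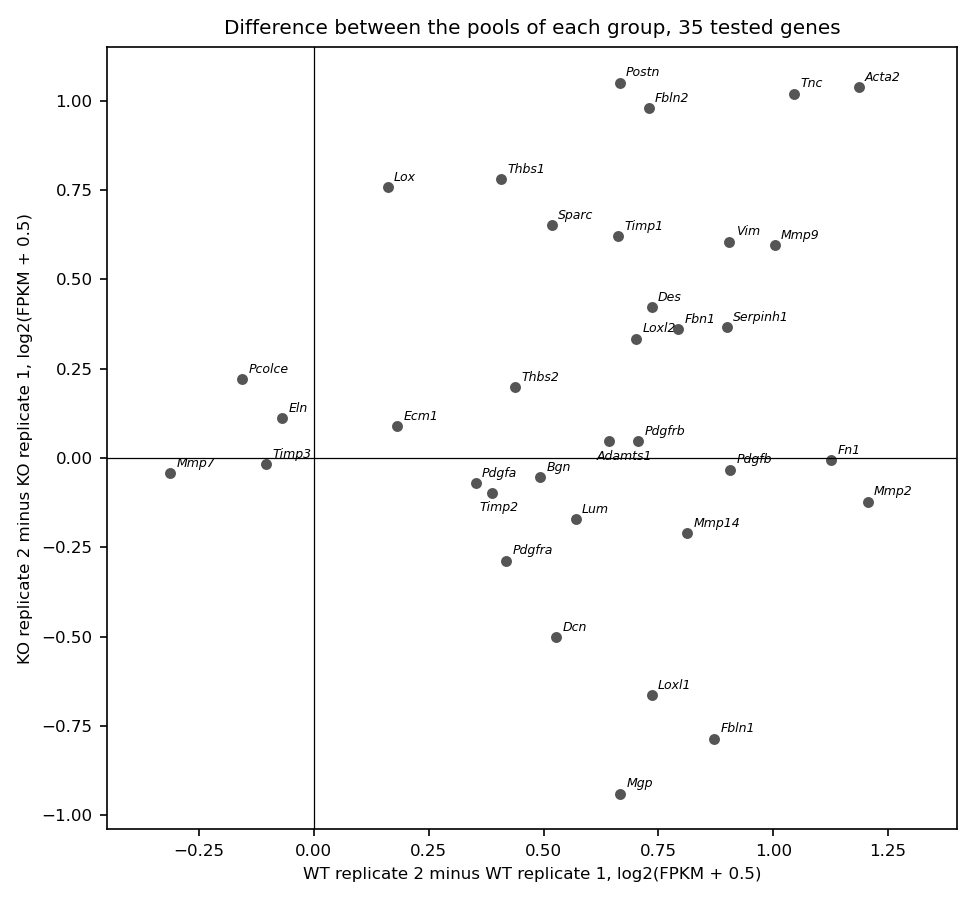
Difference between the 2 pools of WT (horizontal axis) and of KO (vertical axis) for each of the 35 tested genes, on the log2(FPKM + 0.5) scale, where a point is a gene. Acta2, Tnc, Postn and Fbln2 lie at the upper right, Mgp, Fbln1, Loxl1 and Dcn at the lower right, and Fn1 and Mmp2 at the right near the horizontal line.

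The genes fell into groups by these values, which are descriptions and were not tested. Both replicates 2 were at least 1.5 times their replicates 1 for 7 genes, against 1.43% of all tested genes, namely Acta2, Vim, Tnc, Postn, Fbln2, Mmp9 and Timp1. These include the actin of myofibroblasts and the provisional matrix proteins tenascin-C and periostin. For 11 genes this held in WT only, without such a difference in KO in either direction, against 5.86% of all tested genes, among them Fn1, Mmp2, Mmp14, Pdgfb, Pdgfrb and Serpinh1. For Mgp, Fbln1 and Loxl1, WT replicate 2 was the higher WT pool while KO replicate 2 was the lower KO pool, each by at least 1.5 times, against 1.68% of all tested genes, and Dcn was lower in KO replicate 2 with WT replicate 2 at 1.49 times WT replicate 1. Sparc, Thbs1 and Lox were at least 1.5 times higher in replicate 2 in KO only, against 3.98% of all tested genes. The 10 genes under 1.5-fold in both groups, against 72.7% of all tested genes, were Ecm1, Mmp7, Eln, Pcolce, Timp2, Timp3, Bgn, Thbs2, Pdgfa and Pdgfra.

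Macrophage markers were lower in KO for 13 of 15 genes, against 48.6% of all tested genes, with a median log2 fold change of -0.62. For 5 of them both KO pools lay below both WT pools, against 18.1%, and Aif1, with 1.83 and 4.14 FPKM in WT and 1.09 and 0.965 FPKM in KO, had an unadjusted p under 0.05 (limma). Ms4a7, counted as lower, had means of 0.735 FPKM in WT and 0.383 FPKM in KO. It passed the filter only through WT, where it is high, so its direction supports no conclusion. WT replicate 2 was the highest pool for 13 of 15 markers, against 29.1% of all tested genes. Their summed level was 239 and 561 FPKM in the WT pools and 293 and 261 FPKM in the KO pools, with no marker at 0. Adgre1, which encodes F4/80, had 3.09 and 11.2 FPKM in WT and 3.89 and 2.43 FPKM in KO. Kidney epithelial markers had the opposite order in WT, with WT replicate 2 below WT replicate 1 for 7 of 7, where it was above for 49.2% of all tested genes. Their summed level was 2820 and 2124 FPKM in WT and 2321 and 2192 FPKM in KO, of which Umod made up 37.1% to 48.8%. Without Umod it was 1740 and 1335 FPKM in WT and 1188 and 1334 FPKM in KO, where both replicates 2 nearly met. In KO 4 of 7 were lower, against 48.6% of all tested genes, and for 3 both KO pools lay below, against 18.1%.
Neutrophil markers were higher in both replicates 2, with sums of 11.1 and 22.8 FPKM in WT and 11.9 and 29.2 FPKM in KO, and Ly6g, Mpo, Elane and Camp were at 0 in all pools. Platelet markers had sums of 10.03 and 16.6 FPKM in WT and 8.80 and 17.4 FPKM in KO, mostly from Pf4, at 71.4% to 83.3% of the sum. Without Pf4 they were 2.87 and 2.78 FPKM in WT and 2.08 and 3.16 FPKM in KO. Podocyte markers summed to 65.2 and 62.0 FPKM in WT and 70.0 and 75.9 FPKM in KO, of which Podxl made up 49.5% to 56.1%. Without Podxl the sums were 30.3 and 31.3 FPKM in WT and 31.2 and 33.3 FPKM in KO. Of the 6 markers 5 were higher in KO, against 51.4% of all tested genes, and for 2 both KO pools lay above, against 19.7%. Mesangial markers summed to 60.0 and 40.2 FPKM in WT and 81.9 and 61.3 FPKM in KO, of which the renin gene Ren1 made up 73.0% to 88.8%. Without Ren1 the sums were 10.07 and 10.9 FPKM in WT and 9.20 and 8.06 FPKM in KO, and Itga8 and Serpine2, 2 of the 4 tested, were higher in WT replicate 2. The part of these cell types in the differences between pools was not tested.

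Other matrix and fibroblast genes, 70 tested of 90 listed in 6 lists, were read in the same fit. Their log2 fold change was above 0 for 21 and below 0 for 49, where the share below 0 over all tested genes is 48.6%. Between KO and WT 0 passed the adjusted threshold (limma), 1 was higher and 4 were lower at an unadjusted p under 0.05, where the shares of all tested genes are 3.29% and 3.03%. The pools did not overlap for 19 genes, with KO above for 5, against 19.7% of all tested genes, and below for 14, near the share of 18.1%. Aspn, counted among the 14, had means of 0.871 FPKM in WT and 0.4998 FPKM in KO. Cnn1, counted as lower with overlap, had means of 0.686 FPKM in WT and 0.469 FPKM in KO. Both passed the filter of 0.5 FPKM only through WT, where they are high, so their direction supports no conclusion. WT replicate 2 was the highest pool for 47 of the 70, against 29.1%. The 5 at an unadjusted p under 0.05 were Podn, a leucine-rich proteoglycan, which was higher at 3.98 and 3.04 FPKM in WT and 5.14 and 5.18 FPKM in KO, and the lower Dpt, Ogn, Mfap4 and Mmp13. Dpt, dermatopontin, had 2.02 and 2.56 FPKM in WT and 1.25 and 1.29 FPKM in KO. Ogn, osteoglycin, a relative of decorin, had 5.07 and 5.66 FPKM in WT and 4.17 and 3.86 FPKM in KO. Mfap4, a microfibril-associated protein, had 1.36 and 2.96 FPKM in WT and 0.933 and 0.481 FPKM in KO. Mmp13, a collagenase, had 0.745 and 1.20 FPKM in WT and 0.358 and 0.392 FPKM in KO. It passed the filter of a mean of 0.5 FPKM only through WT, the group where it is high, so its test supports no conclusion.
By list, the median log2 fold change was -0.07 for 11 elastic fibre and microfibril genes, -0.17 for 11 leucine-rich proteoglycans and matricellular genes, -0.01 for 13 crosslinking enzymes, -0.13 for 15 proteases and inhibitors, 0.093 for 11 contractile and mural cell genes and -0.27 for 9 fibroblast genes. Among the contractile and mural cell genes, KO replicate 2 was above KO replicate 1 for 10 of 11, against 50.7% of all tested genes, and WT replicate 2 above WT replicate 1 for 11 of 11, against 49.2%. Thy1, a fibroblast surface protein, had 1.70 and 4.91 FPKM in WT and 1.52 and 0.576 FPKM in KO.
The 6 fibrillar collagens had a median log2 fold change of -0.15. WT replicate 2 was the highest pool for 5 of 6, against 29.1% of all tested genes, as it was for Fn1. Col1a1 had 44.1 and 101 FPKM in WT and 54.8 and 59.5 FPKM in KO, and Col3a1 had 43.3 and 87.3 FPKM in WT and 47.3 and 59.1 FPKM in KO.

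**Figure D4:**
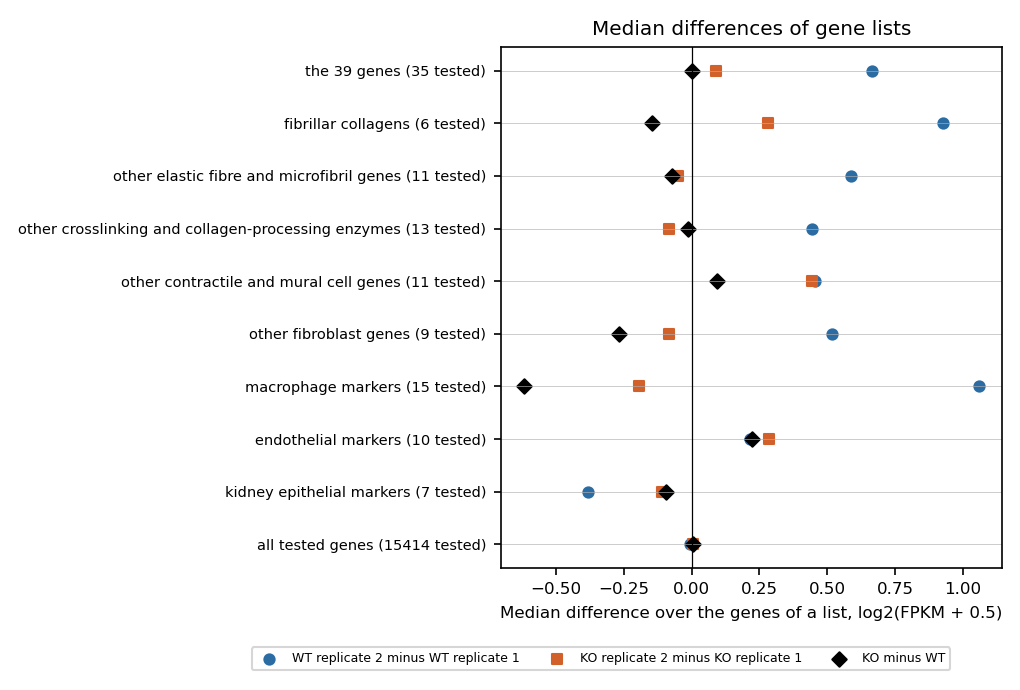
Median over the tested genes of each list of the difference between the WT pools (circles), the KO pools (squares) and the groups (diamonds), on the log2(FPKM + 0.5) scale. The circles lie at 0.67 for the 39 genes and at 1.06 for the macrophage markers, while the diamond of the 39 genes lies at 0.0024.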

How the data were processed

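The authors deposited FPKM per gene and library for 4 pools, 2 WT and 2 KO, with gene positions and lengths. The submitters' processing notes name HISAT2 2.0.5 and the builds mm10 and GRCm38.p6, and the counting tool is not given in the sources used here. Of 53620 genes shared with GENCODE M21, 97.0% had identical positions, as did 36 of the 39 genes described. Multiplied by gene length, 100% of nonzero values were whole multiples of what 1 read is worth, within 0.01 of a read, and reads were recovered from them. The pools of a group were not duplicates, since their reads differed with a chi-square of 31.5 (WT) and 24.5 (KO) for each gene. The design text calls the pools biological replicates of 3 different mice each.

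The KO and WT pools were compared on the log2(FPKM + 0.5) scale by limma 3.58.1 (lmFit, eBayes with trend) in R 4.3.3, two-sided and without covariates, over 15414 genes with a mean of at least 0.5 FPKM, with Benjamini-Hochberg adjustment and a threshold of 0.05. On this scale changes of low genes are understated. With 2 pools a group the smallest two-sided p of an exact permutation test is 0.333, so the value in each pool is given. The fit was tested on simulated data first, where 58 of 100 genes with a 2-fold change and 98 of 100 with a 4-fold change passed. The simulation gave all genes a common spread beyond counting error, set from the median gene. Its rates therefore do not carry over to these data, where 0 genes passed.

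Full statistics are given for tested genes with an unadjusted p under 0.05, for those whose pools do not overlap and whose absolute log2 fold change is at least 0.3, and for those where it is at least 0.5. The interval and adjusted p stand for the unadjusted p there. The members, lists and tests were chosen with earlier results of these data known. The alternatives were each pool left out, a block for the replicate number, an unadjusted threshold, quantile normalization, voom weights on recovered reads, a fit without the trend, pseudocounts of 0.1 and 1, a minimum mean of 1 FPKM, and no minimum. From the other lists, genes named were among those with the smallest p, and Lcn2, Krt20, Vcam1, Umod, Adgre1, Cidec, Adipoq, Lep, Ucp1, Havcr1, Sox9, Clu, Podxl, Aif1, Plvap, Spp1, Pf4, Ren1, Itga8, Serpine2, Myl9, Thy1, Col1a1 and Col3a1 were named as known markers with their values seen. Aspn, Cnn1 and Ms4a7 were named because they passed the filter only through WT. Of the 90 other matrix genes, 3 names had no match. Computations other than limma used Python 3.11.15 with numpy 2.4.6 and pandas 2.3.3. Promoters are from RefSeq on GRCm38.p6. Protein sequences were not used here.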

Additional observations from a re-analysis of the deposited data

How the results depend on the processing

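The number of genes past the adjusted threshold was 0 of the set and 0 of all tested genes under every alternative run, with 0 to 10 of the set and 687 to 1720 of all genes at an unadjusted p under 0.05 (limma). With an unadjusted threshold it was 3 of the set and 974 of all genes. The sample labels give a group and a replicate number, and no pairing of the pools. The deviations of same-numbered pools had a correlation of -0.0017 across genes. A value over all genes does not show whether part of them vary together in same-numbered pools. In a fit with a replicate block 0 genes passed, with 2 of the set and 932 of all at an unadjusted p, where Dcn had a p of 0.0621 (limma). Dcn had 0.0522 without a filter, and over all alternatives the adjusted p of single genes ranged from 0.298 to 1.00. Directions held for 35 of 35 genes with a pseudocount of 0.1, voom weights, no filter, no trend or the block. With a pseudocount of 1, Fbn1 turned to -0.0018, and with quantile normalization Fbn1, Thbs1 and Loxl1 turned to -0.0068, -0.034 and -0.035. The cause was not tested, and all 3 were near 0. The spread of the set's median between replicates was 0.41 (SD), and its median log2 fold change was from -0.29 to 0.23 with 1 pool left out. Both come from the same pools, so the spread is no check of that range. In the fits with 1 pool left out, the lone pool of a group was assumed to vary like the other group.

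With 1 pool left out, 24 of 35 genes changed direction, against 48.9% of all tested genes. The lowest value came without WT replicate 1 and the highest without WT replicate 2 for Fn1 (-0.90 to 0.22), Tnc (-0.38 to 0.67), Thbs2 (-0.29 to 0.14), Bgn (-0.31 to 0.18), Fbn1 (-0.40 to 0.40), Loxl1 (-0.37 to 0.37), Loxl2 (-0.29 to 0.41), Serpinh1 (-0.86 to 0.038), Mmp9 (-0.85 to 0.16), Mmp14 (-0.59 to 0.22), Adamts1 (-0.53 to 0.11), Timp1 (-0.15 to 0.52), Timp2 (-0.28 to 0.11), Pdgfa (-0.10 to 0.25), Pdgfra (-0.19 to 0.23), Pdgfrb (-0.083 to 0.62), Acta2 (-0.18 to 1.01), Des (-0.27 to 0.47) and Vim (-0.31 to 0.59). It came without KO replicate 2, with the highest without KO replicate 1, for Postn (-0.40 to 0.65), Sparc (-0.17 to 0.48), Thbs1 (-0.36 to 0.42), Fbln2 (-0.15 to 0.83) and Pcolce (-0.13 to 0.093). The depth of 16045724 to 16927742 reads limits Lum, Mmp7, Tagln, Mfap5 and Fap, which had under 70 reads in each pool.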
